A study of Canis lupus familiaris with 12 samples.

Results

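Brain capillaries are lined by endothelial cells that seal the paracellular route with tight junctions and control the transcellular route with transporters. This lining is the blood-brain barrier, and its cells differ from those of other organs in their continuous junctions, scarce caveolae and strong efflux. The 10 genes described here are CLDN5, OCLN, TJP1, CDH5, PECAM1, MFSD2A, ABCB1, SLCO1A2, FLT1 and VWF. They were taken by symbol from the hippocampal table. All 10 were found among its 31158 gene models, and all 10 passed the filter on low values that left 16090 models. Several of them are not restricted to endothelium. TJP1 and OCLN are also made by epithelial cells such as those of the choroid plexus, and PECAM1 and VWF are also carried by platelets. The roles given below are known mainly from work in humans and mice.

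Hippocampal mRNA was sequenced from beagles after rapid atrial pacing for 2 weeks and from beagles after a sham operation, with 3 libraries per arm. Rapid atrial pacing drives the atria electrically and is used to model atrial fibrillation, and the design asks how that arrhythmia relates to cognitive impairment. The labels name hippocampal tissue and no isolation of vessels, so fewer endothelial cells and less RNA per endothelial cell cannot be told apart in any value below. The labels give no age or sex and do not say that each library came from a separate dog, so p-values measure the spread between these libraries. The microRNA libraries of exosomes from epicardial fat in the same series were not analysed here.

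Between 35003483 and 51789497 reads were assigned to genes per library, and each barrier gene rested on 42 to 10077 reads in a library. The neuronal markers were high in every library, with summed levels of 1652 to 1907 RPKM in pacing and 1109 to 1825 RPKM in sham. RPKM is the read count scaled by gene length and by the assigned reads of the library, so levels of different genes can be set side by side. Of 20 endothelial identity genes 17 passed the filter, and their summed level was 49.0 to 51.7 RPKM in pacing and 42.7 to 57.3 RPKM in sham. SOX17, SOX18 and SOX7, transcription factors of endothelium, did not pass the filter. Sham replicate 2 stood apart. It had the highest summed level of astrocyte markers (2416 RPKM, against 1399 to 1776 in the other 5 libraries), of oligodendrocyte markers (2737 against 1101 to 1866) and of choroid plexus markers (456 against 6.44 to 160). It had the lowest sum of neuronal markers, 1109 RPKM. Sham replicate 2 was left out for the barrier genes and for the genes of smallest p named from each list. Where such a gene was still tested without this library and its difference moved by more than 1.5 times, that value is given.

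No barrier gene differed between the arms past the threshold. Of the 10, 0 were called by limma at an adjusted p under 0.05, a threshold that 0.0249% of all tested genes passed (0.0186% higher and 0.00622% lower in pacing), and limma-voom on recovered reads also called 0. At an unadjusted p under 0.05 there were 3, PECAM1, ABCB1 and MFSD2A, all higher in pacing, where 9.15% of all tested genes stood (2.85% higher and 6.3% lower in pacing). These were also the 3 genes for which every pacing library lay above every sham library, as 4.92% of all tested genes did. In either direction the arms of 16.2% of all tested genes were apart. By arm mean on the log2 scale 6 were higher in pacing, against 41.1% of all tested genes, and 4 were lower, against 58.9%. Under median-of-ratios scaling 53.1% of all tested genes were higher in pacing. Differences are pacing minus sham on the log2(RPKM + 1) scale, which understates the change of low genes. The median log2 difference of the 10 was 0.19, and that of all tested genes was -0.04. Without sham replicate 3 the median of the 10 was 0.06. Without sham replicate 2 it was 0.26, with 8 genes higher in pacing, against 42.5% of all tested genes in that setting, and 5 with all pacing libraries above the remaining sham libraries, against 11%.

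**Figure D1:**
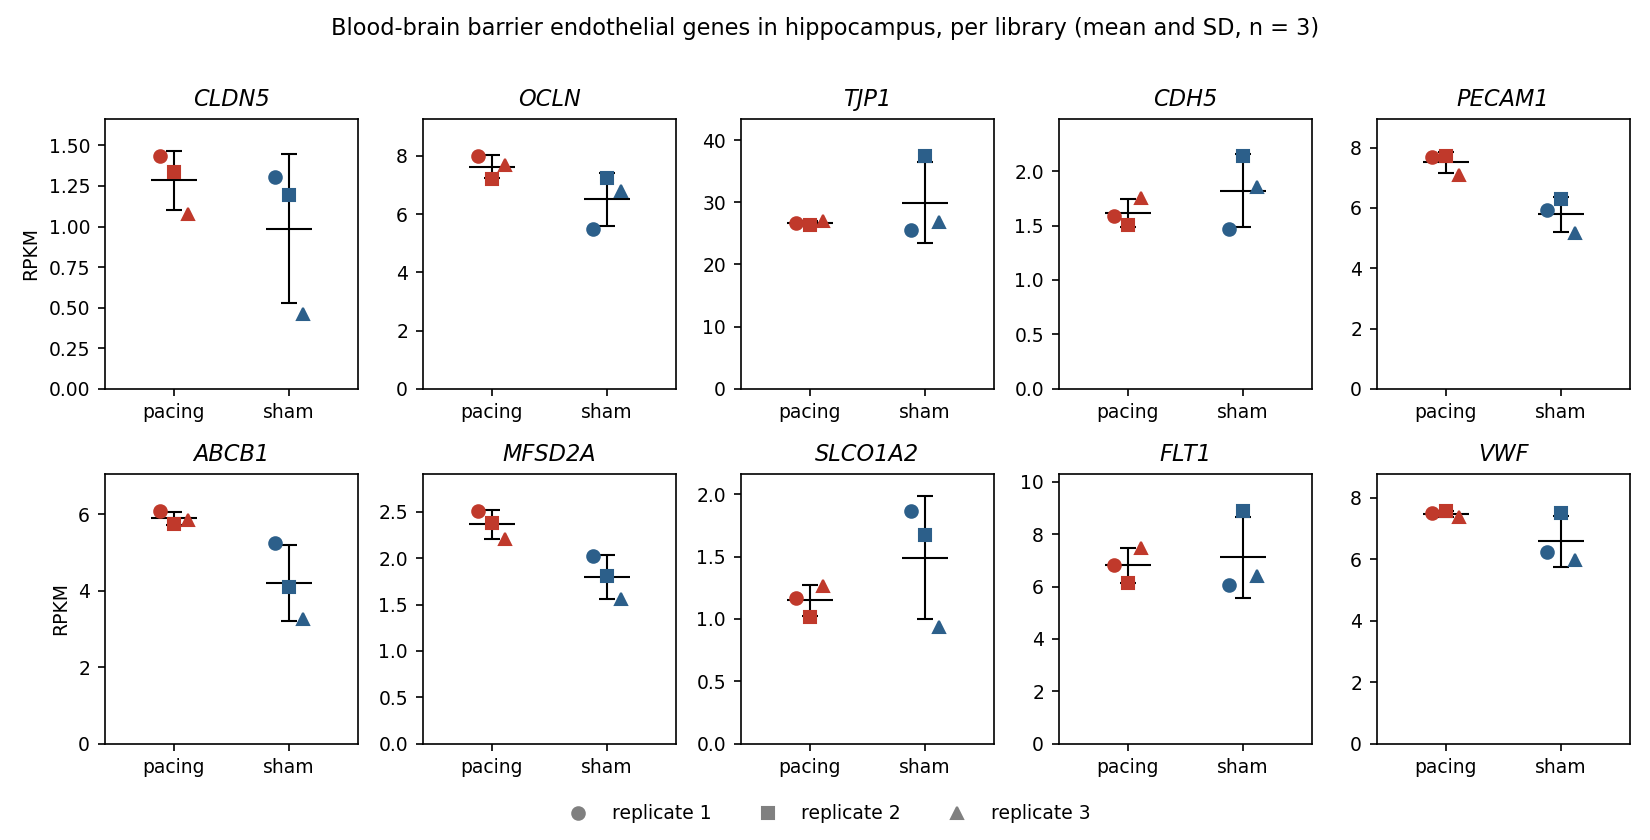
RPKM of each barrier gene in the 3 pacing and the 3 sham libraries, with one panel per gene, the replicate number as the marker shape, and the mean and SD as black lines. PECAM1, ABCB1 and MFSD2A have every pacing point above every sham point, and TJP1, CDH5 and FLT1 have their highest point in sham replicate 2.

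CLDN5 encodes claudin-5, the claudin that dominates the tight junctions of brain endothelium and limits the passage of small molecules. The gene lies on chromosome 26 from 29702464 to 29704950 on the plus strand, in a single exon of 2487 bases, in the CanFam3.1 coordinates of the deposited table that are used throughout. It stood at 1.44, 1.34 and 1.08 RPKM in pacing replicates 1 to 3, against 1.30, 1.196 and 0.462 RPKM in sham replicates 1 to 3. Sham replicate 3 was low and the other 5 libraries overlapped. That library held 42 CLDN5 reads, an exact 95% Poisson interval of 0.333 to 0.624 RPKM that covers counting error only, and the lowest of the other 5 libraries, pacing replicate 3, had an interval of 0.873 to 1.32 RPKM. The log2 difference was 0.23 (SE 0.18, 95% interval -0.21 to 0.66, limma adjusted p = 0.712). It was 0.02 without sham replicate 3 and 0.35 without sham replicate 1.

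OCLN encodes occludin, a membrane protein of the tight junction strand, and lies on chromosome 2 from 54500299 to 54545430. It stood at 8.001, 7.22 and 7.68 RPKM in the pacing libraries and at 5.47, 7.24 and 6.80 RPKM in the sham libraries. Sham replicate 2 lay just above pacing replicate 2, so the arms overlapped by that pair alone. On the log2 scale the difference was 0.21 (SE 0.12, 95% interval -0.07 to 0.49, limma adjusted p = 0.619), and it was 0.11 without sham replicate 1.

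TJP1 encodes the scaffold that ties claudins and occludin to the actin cytoskeleton, and lies on chromosome 3 from 38997122 to 39076617. It stood at 26.7, 26.3 and 27.0 RPKM in the pacing libraries and at 25.5, 37.5 and 26.9 RPKM in the sham libraries. Sham replicate 2 was high, and the other 5 libraries lay within 25.5 to 27.0 RPKM. The log2 difference was -0.14 (SE 0.15, 95% interval -0.49 to 0.20, limma adjusted p = 0.774). It was 0.02 without sham replicate 2 and -0.24 without sham replicate 1.

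CDH5 encodes VE-cadherin, the cadherin of endothelial adherens junctions, and lies on chromosome 5 from 82830505 to 82863931. It stood at 1.58, 1.51 and 1.75 RPKM in the pacing libraries and at 1.47, 2.14 and 1.85 RPKM in the sham libraries. Sham replicate 1 was the lowest of all 6 libraries and sham replicate 2 the highest, so the pacing libraries lay inside the sham range. Limma gave a log2 difference of -0.10 (SE 0.12, 95% interval -0.38 to 0.18, limma adjusted p = 0.796). It was -0.02 without sham replicate 2 and -0.20 without sham replicate 1.

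PECAM1 encodes an adhesion molecule at the borders between endothelial cells that also takes part in leukocyte passage, and lies on chromosome 9 from 12166124 to 12219553. It stood at 7.70, 7.73 and 7.11 RPKM in the pacing libraries and at 5.93, 6.29 and 5.16 RPKM in the sham libraries. Every pacing library lay above every sham library, and the ratio of the arm means was 1.30. The log2 difference was 0.33 (SE 0.10, 95% interval 0.08 to 0.57), with an unadjusted p = 0.0151 from limma and an adjusted p = 0.445. Platelet and erythrocyte markers had summed levels of 1.51 to 1.79 RPKM in pacing and 1.46 to 2.69 RPKM in sham. Of 8 such markers 6 were in the table and 1 passed the filter, and the platelet chemokine gene PPBP was listed at 0 in 2 libraries. Leukocyte markers summed to 27.6 to 31.1 RPKM in pacing and 15.0 to 48.8 RPKM in sham. The sums of both lists therefore overlapped between the arms.

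Among the transporters, ABCB1 encodes P-glycoprotein, the efflux pump that returns many drugs from endothelium to blood. It lies on chromosome 14 from 13644891 to 13852829. ABCB1 stood at 6.09, 5.76 and 5.85 RPKM in the pacing libraries and at 5.25, 4.10 and 3.26 RPKM in the sham libraries. The pacing libraries lay close together and above all sham libraries, which spread over a wider range. The arm means were 5.90 ± 0.174 RPKM in pacing and 4.20 ± 0.998 RPKM in sham (SD, n = 3 each), a ratio of 1.40. On the log2 scale the difference was 0.42 (SE 0.15, 95% interval 0.08 to 0.77), with an unadjusted p = 0.0227 from limma and an adjusted p = 0.476. It was 0.29 without sham replicate 3, and the adjusted p was 0.0943 without sham replicate 1, the smallest that any alternative gave for a barrier gene.

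MFSD2A encodes the carrier that brings docosahexaenoic acid, an omega-3 fatty acid, into the brain as lysophosphatidylcholine and that keeps transcytosis low in brain endothelium. It lies on chromosome 15 from 2966433 to 2979030, and 78 bases of its exons, 3.36% of its length, overlap MYCL on the opposite strand. Reads in that overlap cannot be assigned, since the kit was a stranded one by the labels but no source states whether reads were counted by strand. MYCL averaged 0.671 RPKM. MFSD2A stood at 2.51, 2.38 and 2.20 RPKM in the pacing libraries and at 2.03, 1.81 and 1.56 RPKM in the sham libraries. The arms did not overlap, and the ratio of the arm means was 1.32. The log2 difference was 0.27 (SE 0.11, 95% interval 0.02 to 0.52), with an unadjusted p = 0.0377 from limma and an adjusted p = 0.529.

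SLCO1A2 encodes an organic anion transporting polypeptide that carries bile acids, steroid conjugates and thyroid hormones. It lies on chromosome 27 from 26279654 to 26398000. It stood at 1.17, 1.02 and 1.26 RPKM in the pacing libraries and at 1.87, 1.67 and 0.936 RPKM in the sham libraries. Sham replicates 1 and 2 were above every other library, and sham replicate 3 was below every other library. Limma gave a log2 difference of -0.19 (SE 0.16, 95% interval -0.57 to 0.18, limma adjusted p = 0.714). The difference was -0.37 without sham replicate 3 and -0.08 without sham replicate 1.

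FLT1 encodes a receptor for vascular endothelial growth factor that binds its ligand tightly and signals weakly. The gene lies on chromosome 25 from 11231958 to 11410379. It stood at 6.83, 6.14 and 7.47 RPKM in the pacing libraries and at 6.06, 8.90 and 6.40 RPKM in the sham libraries. Sham replicate 2 was the highest library, and the other 5 overlapped. The log2 difference was -0.04 (SE 0.15, 95% interval -0.40 to 0.31, limma adjusted p = 0.942). It was 0.11 without sham replicate 2, 0.02 without pacing replicate 2 and -0.14 without sham replicate 1, so its sign depended on single libraries.

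VWF encodes von Willebrand factor, which endothelial cells store in Weibel-Palade bodies and release to tether platelets. The gene lies on chromosome 27 from 38834812 to 38972614. It stood at 7.50, 7.58 and 7.37 RPKM in the pacing libraries and at 6.25, 7.52 and 5.99 RPKM in the sham libraries. The pacing libraries lay within a narrow range, and sham replicate 2 fell inside it while the other sham libraries lay below it. On the log2 scale the difference was 0.17 (SE 0.11, 95% interval -0.09 to 0.42, limma adjusted p = 0.648), and it was 0.25 without sham replicate 2 and 0.11 without sham replicate 3.

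**Figure D2:**
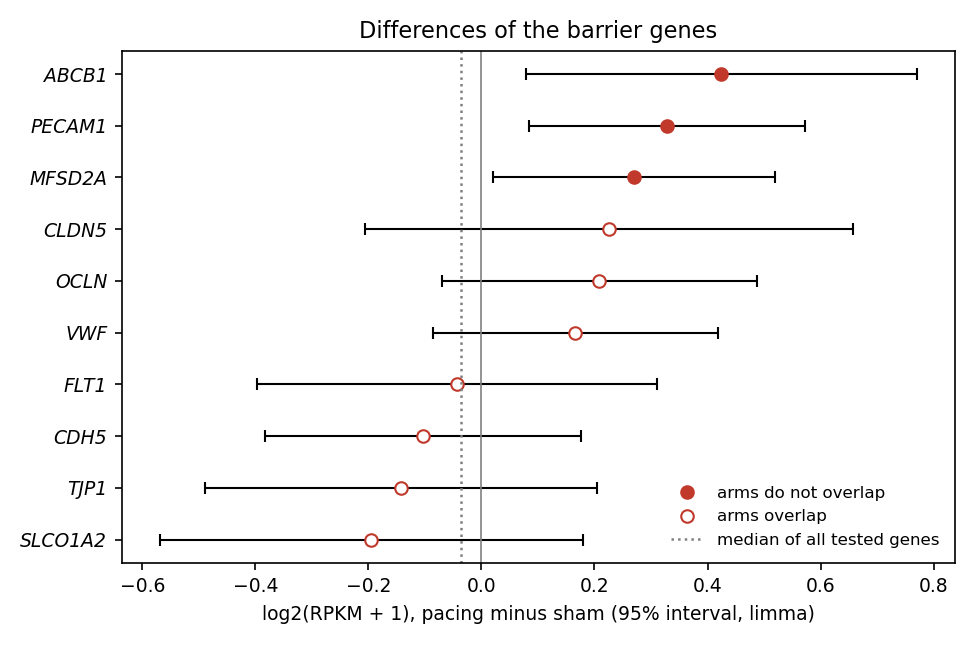
Difference of each barrier gene between pacing and sham on the log2(RPKM + 1) scale with its 95% interval from limma, ordered from the highest at the top. Filled points are genes whose arms do not overlap, and the dotted line marks the median of all tested genes at -0.04. The intervals of ABCB1, PECAM1 and MFSD2A lie above 0, without adjustment for the number of genes tested, and those of the other 7 genes include 0.

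Set in order of level over the 6 libraries, TJP1 was the most abundant at 28.3 ± 4.51 RPKM (SD, n = 6) and exceeded the next gene 4.004-fold in mean. OCLN (7.07 ± 0.884), VWF (7.03 ± 0.717), FLT1 (6.96 ± 1.08) and PECAM1 (6.65 ± 1.04 RPKM) followed, and neighbours in this run did not differ beyond their spread. OCLN was above VWF in 3 of 6 libraries, VWF above FLT1 in 3, and FLT1 above PECAM1 in 4. ABCB1 came next at 5.05 ± 1.13 RPKM and was below PECAM1 in all 6 libraries, although their ranges overlapped. A gap separated ABCB1 from MFSD2A at 2.08 ± 0.359 RPKM, with no overlap of ranges. CDH5 (1.72 ± 0.254), SLCO1A2 (1.32 ± 0.371) and CLDN5 (1.14 ± 0.352 RPKM) were the lowest, and each overlapped its neighbours. CLDN5 lay at the 15.8th percentile and TJP1 at the 85.8th percentile of the mean level of all tested genes.

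The lowest library of each of the 10 genes was a sham library, sham replicate 3 for 6 genes and sham replicate 1 for 4. The highest was a pacing library for 6 genes and a sham library for 4. The highest and lowest libraries were not counted over all tested genes, so these counts cannot be read as particular to the barrier genes. The coefficient of variation was larger among the sham libraries than among the pacing libraries for all 10 genes, as it was for 78.2% of all tested genes. For TJP1 it was 1.35% in pacing and 21.8% in sham, and for VWF 1.40% in pacing and 12.5% in sham. The medians over all tested genes were 8.39% in pacing and 17.0% in sham.

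**Figure D3:**
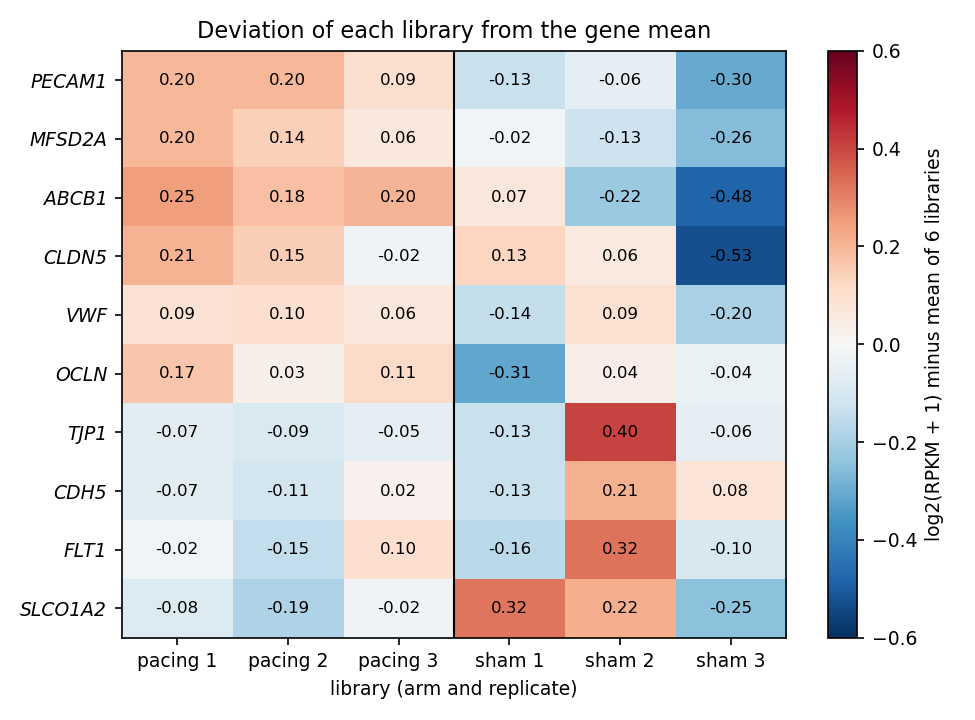
Deviation of each library from the mean of its gene over the 6 libraries, on the log2(RPKM + 1) scale, with barrier genes in rows and the pacing libraries left of the sham libraries. Sham replicate 2 deviates by 0.40 for TJP1 and 0.32 for FLT1, and sham replicate 3 by -0.53 for CLDN5 and -0.48 for ABCB1.

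Over the 6 libraries the barrier genes did not vary as a unit. Pearson r among the 45 pairs, on log2(RPKM + 1), ran from -0.66 for ABCB1 with CDH5 to 0.96 for ABCB1 with MFSD2A. These values are descriptions, since libraries of an arm share its treatment and the genes of a library share its cell composition. PECAM1, MFSD2A, ABCB1 and CLDN5, grouped after their values were seen, correlated at 0.77 to 0.96 in their 6 pairs. TJP1, CDH5 and FLT1, grouped in the same way, correlated at 0.85 to 0.90 in their 3 pairs. Between these groups r was -0.66 to 0.09 in 12 pairs. Without sham replicate 3 the first group's pairs ran from 0.31 to 0.92, and without sham replicate 2 the pairs of TJP1, CDH5 and FLT1 ran from 0.53 to 0.83, with 5 libraries in each case.

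**Figure D4:**
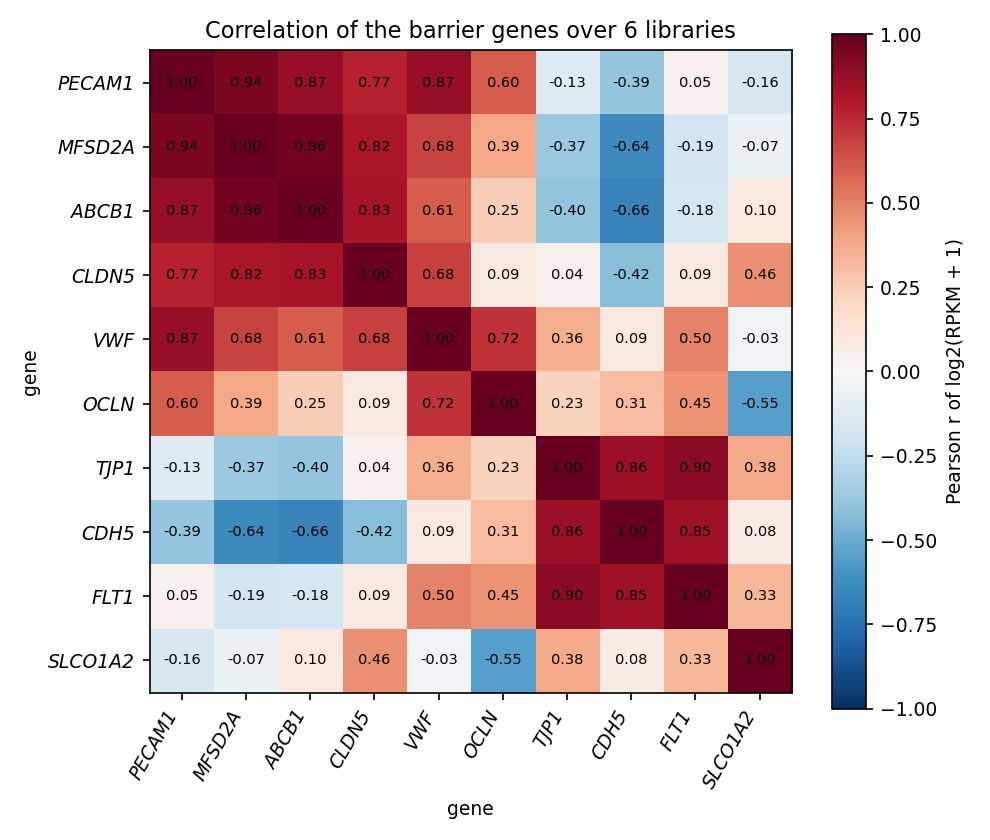
Pearson r over the 6 libraries for each pair of barrier genes on the log2(RPKM + 1) scale. The block of PECAM1, MFSD2A, ABCB1 and CLDN5 has r of 0.77 to 0.96, and the block of TJP1, CDH5 and FLT1 has r of 0.85 to 0.90.

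The gene whose pattern was most like each barrier gene, by Pearson r over the 6 libraries among 12740 tested genes with a symbol, was FAM76A for CLDN5 (0.996), TTI2 for OCLN (0.992) and ANP32B for TJP1 (0.998). It was YAP1 for CDH5 (0.997), BTG3 for PECAM1 (0.995) and COL9A3 for MFSD2A (0.996). For ABCB1 it was the mitochondrial transcript ND3 (0.997), followed by ND1 (0.995) and SHE (0.994). ND3 stood at 1967, 1760 and 1930 RPKM in pacing and at 1519, 859.9 and 481 RPKM in sham (log2 difference 1.14, limma adjusted p = 0.455). This mitochondrial transcript was highest where ABCB1 was highest and lowest in sham replicate 3 for both, and its part in the ABCB1 values was not tested. The most alike gene was COL7A1 for SLCO1A2 (0.993), KCNC2 for FLT1 (0.995) and RRAGA for VWF (0.993). With 6 libraries and this many candidates, such high values are the top of a long list. No barrier gene was among the 3 nearest genes of another.

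Set against the endothelial identity genes, the barrier genes kept their directions. The mean log2 level of the 17 tested identity genes was 1.59 to 1.61 in pacing and 1.52 to 1.82 in sham, highest in sham replicate 2. After this mean was subtracted in each library, the difference was 0.46 for ABCB1, 0.36 for PECAM1 and 0.30 for MFSD2A, and limma's adjusted p for these 3 was 0.656, 0.633 and 0.770. The arms were then apart for 5 barrier genes, with OCLN and VWF added, all higher in pacing, as for 4.47% of all tested genes under this scaling. Relative VWF was 3.08 to 3.13 in pacing and 2.88 to 2.92 in sham. The same 5 genes were apart under quantile scaling, where 6.67% of all tested genes were apart with pacing higher, under median-of-ratios scaling, where 8.07% were, and without sham replicate 2.

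Of the endothelial identity genes themselves 8 were higher and 9 lower in pacing by arm mean, with a median log2 difference of -0.0047, and 0 of 17 were called by limma. ROBO4, a receptor that stabilises vessels, stood at 0.573 ± 0.0452 RPKM in pacing and 1.15 ± 0.38 RPKM in sham (SD, n = 3 each; log2 difference -0.43, adjusted p = 0.455). ENG, a co-receptor for transforming growth factor beta, stood at 0.796 ± 0.0568 RPKM in pacing and 1.24 ± 0.338 RPKM in sham (-0.31, adjusted p = 0.538), and its difference was -0.19 without sham replicate 2. The adhesion receptor ADGRL4 stood at 1.52 ± 0.171 RPKM in pacing and 2.01 ± 0.335 RPKM in sham (-0.25, adjusted p = 0.57). For these 3 and for the angiopoietin receptor TEK every pacing library lay below every sham library, as for 11.3% of all tested genes.

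Of 15 other junction genes 12 were tested, 2 higher and 10 lower in pacing with a median log2 difference of -0.06, and 0 were called by limma. The junctional adhesion molecule F11R stood at 3.77 ± 0.34 RPKM in pacing and 4.82 ± 0.483 RPKM in sham (SD, n = 3 each; log2 difference -0.29, adjusted p = 0.52). CTNND1, the catenin that keeps cadherins at the membrane, stood at 6.09, 6.81 and 6.91 RPKM in pacing and at 7.22, 13.1 and 8.75 RPKM in sham (-0.46, adjusted p = 0.544), and its difference was -0.24 without sham replicate 2. The scaffold AFDN stood at 19.4 ± 0.686 RPKM in pacing and 22.7 ± 2.29 RPKM in sham (-0.21, adjusted p = 0.585), and its difference was -0.13 without sham replicate 2. The arms were apart for these 3 genes, all lower in pacing, as for 11.3% of all tested genes. By arm mean 58.9% of all tested genes were lower in pacing. CLDN1, CLDN3 and MARVELD2 did not pass the filter.

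Of 15 other transporters and receptors of brain endothelium 13 were tested, 6 higher and 7 lower in pacing with a median log2 difference of -0.01, and 0 were called by limma. SLC2A1, the glucose transporter of the barrier, stood at 19.96, 19.8 and 18.4 RPKM in pacing and at 14.5, 18.2 and 10.6 RPKM in sham (log2 difference 0.43, adjusted p = 0.54), and its difference was 0.24 without sham replicate 3. The transferrin receptor TFRC stood at 7.73 ± 0.527 RPKM in pacing and 6.18 ± 1.07 RPKM in sham (SD, n = 3 each; 0.29, adjusted p = 0.559), and its difference was 0.17 without sham replicate 2. Both had every pacing library above every sham library, as did 4.92% of all tested genes. The monocarboxylate transporter SLC16A1 stood at 3.66 ± 0.269 RPKM in pacing and 5.3 ± 1.7 RPKM in sham (-0.40, adjusted p = 0.578), and its difference was -0.20 without sham replicate 2. Its arms overlapped.

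Genes of caveolae and fenestrae are kept low in barrier endothelium. Of 6 listed 5 were tested, 3 higher and 2 lower in pacing with a median log2 difference of 0.02, and 0 were called by limma. PLVAP, the diaphragm protein of fenestrae and caveolae, stood at 4.92, 5.95 and 5.46 RPKM in pacing and at 2.91, 4.12 and 2.79 RPKM in sham. Every pacing library lay above every sham library, and the log2 difference was 0.60 (SE 0.14, unadjusted p = 0.00363 from limma, adjusted p = 0.35). Vessels of the choroid plexus are fenestrated, and the summed choroid plexus markers were 76.7 to 160 RPKM in pacing and 6.44 to 456 RPKM in sham. Of these 9 markers 3 passed the filter. TTR, the transthyretin of choroid plexus epithelium, stood at 154.8, 70.5 and 103 RPKM in pacing and at 2.46, 449 and 42.9 RPKM in sham. The log2 difference of TTR was 1.36 (limma adjusted p = 0.790) and its arms overlapped. Without sham replicate 2 it was 3.09 with the arms apart, as for 11% of all tested genes with pacing higher in that setting. Without sham replicate 1 it was -0.42. The part of this tissue in the PLVAP values was not tested. CAV1 stood at 4.3 ± 0.657 RPKM in pacing and 5.48 ± 1.05 RPKM in sham (SD, n = 3 each; -0.28, adjusted p = 0.611). CAVIN1 stood at 8.23 ± 0.173 RPKM in pacing and 9.75 ± 1.7 RPKM in sham (-0.21, adjusted p = 0.637). Both caveolar genes overlapped between the arms.

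Wnt and norrin signals from neighbouring cells induce and maintain the barrier through Frizzled receptors. Of 17 genes of this pathway 15 were tested, 6 higher and 9 lower in pacing with a median log2 difference of -0.05, and 0 were called by limma. The receptor FZD6 stood at 8.27, 8.95 and 7.89 RPKM in pacing and at 6.63, 6.25 and 4.45 RPKM in sham (log2 difference 0.48, adjusted p = 0.417). TSPAN12, a co-receptor for norrin, stood at 17.1 ± 0.944 RPKM in pacing and 14.9 ± 0.466 RPKM in sham (SD, n = 3 each; 0.19, adjusted p = 0.575). APCDD1, a Wnt antagonist expressed in barrier vessels, stood at 6.65 ± 0.263 RPKM in pacing and 8.17 ± 0.328 RPKM in sham (-0.26, adjusted p = 0.474). The arms did not overlap for these 3 genes, which differed in direction. They were also apart for LRP6, at 5.24 ± 0.167 RPKM in pacing and 6.01 ± 0.115 RPKM in sham (-0.17, limma adjusted p = 0.605). Of the 15 tested, 2 were thus apart with pacing higher, against 4.92% of all tested genes, and 2 with pacing lower, against 11.3%.

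Among 12 ligands and receptors of the VEGF and angiopoietin pathways, in which FLT1 acts, 3 were higher and 9 lower in pacing with a median log2 difference of -0.14, and 0 were called by limma. This list shares KDR, TEK and TIE1 with the identity genes. ANGPT2, an angiopoietin that destabilises vessels and is stored with VWF, stood at 0.901, 0.951 and 0.858 RPKM in pacing and at 1.17, 4.25 and 3.02 RPKM in sham. The arms did not overlap, the sham libraries spread widely, and the log2 difference was -0.91 (SE 0.29, unadjusted p = 0.0164 from limma, adjusted p = 0.455). It was -0.64 without sham replicate 2, and -1.27 without sham replicate 1, where limma called it (adjusted p = 0.0313). In that setting limma called 95 of 16083 tested genes, against 4 with no library left out. VEGFA, the main ligand of these receptors, stood at 11.9 ± 0.423 RPKM in pacing and 14.5 ± 1.77 RPKM in sham (SD, n = 3 each; -0.26, adjusted p = 0.544), and its difference was -0.16 without sham replicate 2. PGF, a ligand that binds FLT1, stood at 2.86 ± 0.171 RPKM in pacing and 3.52 ± 0.356 RPKM in sham (-0.23, adjusted p = 0.567). For both ligands all pacing libraries lay below all sham libraries, as for 11.3% of all tested genes.

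Of 10 partners of VWF in storage, cleavage and platelet binding 3 were tested, 1 higher and 2 lower in pacing with a median log2 difference of -0.56, and 0 were called by limma. Besides ANGPT2 they were EDN1, the vasoconstrictor endothelin, at 1.6 ± 0.247 RPKM in pacing and 2.93 ± 1.04 RPKM in sham (SD, n = 3 each; log2 difference -0.56, adjusted p = 0.494), and the protein C receptor gene PROCR at 0.571 ± 0.0859 RPKM in pacing and 0.456 ± 0.273 RPKM in sham (0.12, adjusted p = 0.797). The arms overlapped for both. The protease that cleaves VWF, ADAMTS13, averaged 0.426 RPKM and SELP 0.115 RPKM, below the filter.

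**Figure D5:**
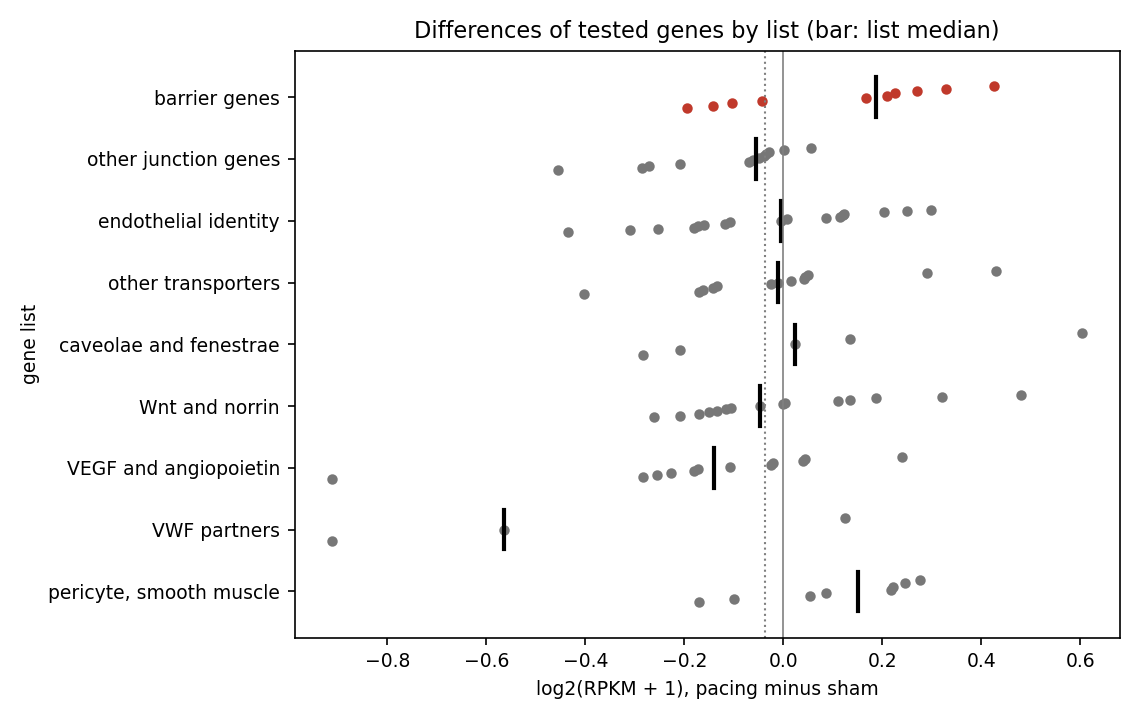
Difference of each tested gene between pacing and sham on the log2(RPKM + 1) scale, by list, with the list median as a black bar, 0 as a solid line and the median of all tested genes as a dotted line. The barrier genes have a median of 0.19, the other endothelial lists have medians between -0.56 for the 3 tested VWF partners and 0.02 for caveolae and fenestrae, and pericyte and smooth muscle markers have a median of 0.15.

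The summed level of markers of the cells that ensheath brain vessels was higher in pacing, as were PECAM1, ABCB1 and MFSD2A by arm mean, although single markers went both ways. The 10 pericyte and smooth muscle markers summed to 43.6, 43.3 and 41.9 RPKM in pacing and to 39.2, 39.3 and 35.4 RPKM in sham. The sums did not overlap between the arms. Of 8 tested 6 were higher in pacing by arm mean, KCNJ8 (log2 difference -0.17) and NOTCH3 (-0.10) were lower, and 0 were called by limma. NOTCH3 stood at 0.698, 0.722 and 0.660 RPKM in pacing and at 0.688, 1.31 and 0.531 RPKM in sham. Only sham replicate 2 lay above its pacing libraries. RGS5, a pericyte regulator of G protein signalling, averaged 9.75 ± 0.356 RPKM in pacing and 8.25 ± 0.962 RPKM in sham, and MYH11, the smooth muscle myosin, 13.8 ± 0.435 RPKM in pacing and 11.8 ± 0.738 RPKM in sham (SD, n = 3 each). The arms were apart for both, as for 4.92% of all tested genes with pacing higher. The limma adjusted p was 0.585 for RGS5 and 0.544 for MYH11. The part of pericytes and smooth muscle in the values of PECAM1, ABCB1 and MFSD2A was not tested. Microglial markers summed to 88.3 to 105 RPKM in pacing and 76.7 to 133 RPKM in sham, with 4 of 7 tested higher. CSF1R (log2 difference -0.10), C1QA (-0.01) and C1QB (-0.16) were lower. The microglial gene TMEM119 stood at 1.61 ± 0.171 RPKM in pacing and 0.897 ± 0.201 RPKM in sham (SD, n = 3 each; log2 difference 0.46, limma adjusted p = 0.36), with the arms apart. P2RY12, a purine receptor of microglia, stood at 7.45 ± 0.64 RPKM in pacing and 5.08 ± 1.65 RPKM in sham (0.51, limma adjusted p = 0.529), with the arms apart as well. Arms were apart with pacing higher for 4.92% of all tested genes. Meningeal fibroblast markers summed to 12.2 to 13.4 RPKM in pacing and 9.35 to 12.8 RPKM in sham, with 4 of 6 tested higher. COL1A1 (log2 difference -0.02) and COL3A1 (-0.28, limma adjusted p = 0.544) were lower. The arms of COL3A1 were apart, as for 11.3% of all tested genes with pacing lower. Ependymal markers summed to 2.49 to 5.11 RPKM in pacing and 4.73 to 8.76 RPKM in sham, with 0 of 5 tested higher and a median log2 difference of -0.49. At an unadjusted p under 0.05 from limma 4 of the 5 were lower in pacing, as were 6.3% of all tested genes. FOXJ1 and HYDIN, genes of motile cilia, were lower with the arms apart, as were 11.3% of all tested genes. FOXJ1 averaged 0.536 RPKM, close to the filter of 0.5 RPKM, and did not pass it without sham replicate 2 or without sham replicate 3. Its arm means were 0.290 RPKM in pacing and 0.783 RPKM in sham, and those of HYDIN were 0.392 and 0.982 RPKM. Both genes thus passed the filter through the sham arm, so their lower values in pacing are not independent of that filter. The part of ependymal and microglial cells in the barrier gene values was not tested. No marker of these lists that was in the table was at 0 in all 6 libraries, and 0 were called by limma. The sums of the microglial, fibroblast and ependymal lists overlapped between the arms.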

How the data were processed

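The submitters' processing notes name the trimmer Trimmomatic 0.36, the aligner STAR 2.5.3a and the counter featureCounts. No source used here gives the annotation release or the strand setting. The authors deposited RPKM for hippocampus, scaled by the deposited gene length and by the reads assigned to genes in each library. RPKM times that length, divided by the smallest such product above 0 in the library (the worth of 1 read), gave whole reads for 100% of values in every library, within a tolerance of 1e-04 reads. The table's sequence accessions are those of CanFam3.1, and its coordinates are given on that assembly.

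Gene models averaging 0.5 RPKM or more were tested with limma 3.58.1 (limma-trend, R 4.3.3) on log2(RPKM + 1), with Benjamini-Hochberg adjustment over 16090 genes at 0.05. Differences are pacing minus sham and understate the change of low genes. The fit was tested on simulated data. The 10 members and the gene lists were chosen with earlier results of these data known. From each list the 3 genes with the smallest p are named, and from the marker lists those shown beside a result. For each member the tested gene of highest r is named. All 10 members have an entry in a RefSeq gene table of UU_Cfam_GSD_1.0, used for chromosome names only, and 99.8% of 25876 shared symbols lay on the same chromosome. No sequences were used here. Alternatives covered pseudocount, filter, scaling, library weights, replicate block, left-out libraries and limma-voom on recovered reads.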

Additional observations from a re-analysis of the deposited data

How the results depend on the processing

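No barrier gene was called by limma under any alternative run, and the smallest adjusted p was 0.0943, for ABCB1 without sham replicate 1. PECAM1, ABCB1, MFSD2A, CLDN5, OCLN and VWF stayed higher and CDH5 and SLCO1A2 lower in pacing under every alternative that tested them. The log2 difference of FLT1 changed sign with median-of-ratios scaling (0.0134), quantile scaling (0.0019) and library weights (0.0420), and ran from -0.135 to 0.108 with 1 library left out, above 0 without pacing replicate 2 and without sham replicate 2. That of TJP1 ran from -0.243 to 0.0245, above 0 without sham replicate 2. The cause was not tested. With 1 library left out, the median difference of the 10 genes ran from 0.06 to 0.26, the number higher from 6 to 8 and the number with arms apart from 3 to 5. Over all tested genes the arms of 21.8% to 38.4% were then apart, as fewer libraries must be separated. Arms were apart, pacing higher, for 5 barrier genes under median-of-ratios scaling (8.07% of all tested genes), quantile scaling (6.67%) and relative to endothelial identity genes (4.47%), against 3 in the deposited RPKM (4.92%). These counts of genes apart or higher, and limma-voom, were added after seeing the data. The median of all tested genes was -0.04, and 0.01 under median-of-ratios scaling. Over all genes 4 were called, 7 with no filter, 23 with library weights, and 3 to 95 with 1 library left out, the highest without sham replicate 1 and 9 without sham replicate 2. At a mean RPKM of at least 2, CLDN5, CDH5 and SLCO1A2 were not tested. The quasi-likelihood test on recovered reads was not run, and limma-voom on those reads was run in its place.

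Same-numbered libraries of the arms did not deviate together (r of -0.11, 0.06 and -0.01 over genes). Libraries with different numbers gave r from -0.23 to 0.27. Deviations were taken from the mean of each small arm, so these values cannot exclude a pairing. With the replicate block 7 genes were called, and 0 barrier genes. CLDN5 had 42 to 162 reads per library, the fewest of the 10, which limits its precision most.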
